A study of Mus musculus with 1505 samples.

Results

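The L5 IT_1 neurons of mouse primary motor cortex, an intratelencephalic pyramidal type of layer 5, were compared between recordings at 34 °C and at 25 °C. Members were all neurons whose transcriptomic type label was L5 IT_1, which gave 90 of the 1505 neurons in the series, 29 of 185 recorded at 34 °C and 61 of 1320 recorded at 25 °C. Each neuron was patch-clamped in an acute slice, stepped with current pulses, and its content aspirated for Smart-seq2 sequencing of polyadenylated RNA, so that each sample was 1 cell. The 34 °C cells were recorded in a later year than every 25 °C cell, from adult mice (per the study's methods Sst-Cre/Ai9 and Pvalb-Cre/Ai9), in the presence of the synaptic transmission blockers kynurenic acid and picrotoxin, with several neurons taken per slice. The 25 °C cells came from adult wild-type C57Bl/6 mice and several Cre/Ai9 lines, without these blockers in the stated protocol, 52 in earlier years (the early cells) and 9 in the last year at 25 °C (the late cells). Sst-Cre and Pvalb-Cre are used to drive the Ai9 reporter in interneurons, and its state in these pyramidal cells was not examined. Temperature, blockers, year and the taking of several neurons per slice therefore cannot be told apart. The mouse lines differed as well, and the labels give no mouse line for single cells, so line cannot be separated from temperature either.

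The labels name no animal, so each temperature was treated as 1 sample of cells and no test between the temperatures was made. The exonic counts of all cells at 1 temperature were added up and given per 1000000 exonic counts (CPM), with exact Poisson intervals that cover counting error only, and each gene is also described over cells and over recording days. Genes that reached 10 CPM at either temperature were measured. A fold change is the ratio of the summed CPM + 1 at 34 °C over 25 °C, on the log2 scale unless stated.

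Heat shock and neuronal activity switch on different sets of genes. When proteins unfold, heat-shock factor 1 leaves its chaperone complex, trimerizes and binds heat-shock elements, runs of alternating GAA and TTC, upstream of the chaperone genes. Depolarization and calcium entry act through kinases on CREB and serum response factor, which switch on immediate early transcription factors such as Fos within minutes and, through them, effector genes that act at synapses. Cooling, in contrast, is known to raise the RNA-binding proteins Cirbp and Rbm3 in mammalian cells.

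Promoter windows of 6 members that hold a motif of these factors are printed 5′ to 3′ from RefSeq (GRCm38.p6), from 250 bases before to 50 bases after the transcription start. Hspa1a and Hspa1b, the stress-inducible Hsp70 genes, lie on the minus strand of chromosome 17 (windows chr17:34972107-34972406 and chr17:34959189-34959488), and their windows differ at 4 of 300 bases. Capitals mark GAANNTTC, the inverted pair of heat-shock units, which begins 104 bases before the start in both.
Hspa1a: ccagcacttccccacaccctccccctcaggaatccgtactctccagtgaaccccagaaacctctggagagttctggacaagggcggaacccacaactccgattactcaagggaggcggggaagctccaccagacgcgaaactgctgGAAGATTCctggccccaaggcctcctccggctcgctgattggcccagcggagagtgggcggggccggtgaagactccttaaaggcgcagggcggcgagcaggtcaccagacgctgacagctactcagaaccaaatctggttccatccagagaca
Hspa1b: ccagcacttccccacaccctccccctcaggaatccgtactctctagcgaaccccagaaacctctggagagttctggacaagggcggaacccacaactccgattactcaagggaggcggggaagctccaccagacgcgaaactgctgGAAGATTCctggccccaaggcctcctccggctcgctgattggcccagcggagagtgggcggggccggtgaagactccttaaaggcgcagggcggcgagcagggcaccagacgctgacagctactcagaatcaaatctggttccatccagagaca
Hspe1, the mitochondrial co-chaperonin (chr1:55087898-55088197, plus strand), and Chordc1, a co-chaperone of Hsp90 (chr9:18292017-18292316, plus strand), are shown for the same motif, which begins at base -84 of Hspe1 and at bases -4 and 7 of Chordc1.
Hspe1: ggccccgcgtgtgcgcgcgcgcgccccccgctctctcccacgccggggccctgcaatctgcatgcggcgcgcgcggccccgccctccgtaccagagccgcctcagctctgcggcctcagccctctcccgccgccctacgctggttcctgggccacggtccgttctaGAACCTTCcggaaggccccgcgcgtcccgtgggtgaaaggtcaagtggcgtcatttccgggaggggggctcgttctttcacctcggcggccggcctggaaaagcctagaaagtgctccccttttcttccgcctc
Chordc1: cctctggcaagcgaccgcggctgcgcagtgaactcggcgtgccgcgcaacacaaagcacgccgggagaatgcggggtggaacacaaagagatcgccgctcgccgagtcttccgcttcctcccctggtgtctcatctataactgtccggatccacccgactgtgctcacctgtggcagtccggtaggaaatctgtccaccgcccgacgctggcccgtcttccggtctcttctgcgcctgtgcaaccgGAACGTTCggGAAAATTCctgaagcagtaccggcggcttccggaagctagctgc
For Fos (chr12:85473640-85473939, plus strand) and Npas4 (chr19:4989922-4990221, minus strand) capitals mark TGACGT or its complement ACGTCA, the core of the cyclic AMP response element that CREB binds.
Fos: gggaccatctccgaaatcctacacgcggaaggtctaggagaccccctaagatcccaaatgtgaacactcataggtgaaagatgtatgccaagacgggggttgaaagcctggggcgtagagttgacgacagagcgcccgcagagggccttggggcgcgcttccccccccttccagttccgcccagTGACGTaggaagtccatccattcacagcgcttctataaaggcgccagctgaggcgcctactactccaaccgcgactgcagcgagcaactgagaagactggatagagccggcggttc
Npas4: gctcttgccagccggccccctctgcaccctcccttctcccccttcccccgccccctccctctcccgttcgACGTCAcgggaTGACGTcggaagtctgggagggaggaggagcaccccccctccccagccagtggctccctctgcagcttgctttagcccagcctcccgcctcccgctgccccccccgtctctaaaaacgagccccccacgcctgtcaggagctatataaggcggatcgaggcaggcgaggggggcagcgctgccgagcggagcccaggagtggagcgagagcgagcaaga
GAANNTTC, which reads the same on both strands, stood in the windows of 12 of the 23 heat-shock genes with a RefSeq window, against 9.04% of 27025 genes. TGACGT on either strand stood in those of 7 of 16 immediate early and 10 of 14 effector genes, against 8.37% of all genes. The windows of Ahsa1 and Dnajb1 held no GAANNTTC. A match of these letters is a description of the window and not a measured binding site.

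The libraries were of similar depth. In M (1000000 counts), exonic counts per cell ranged between 0.260 and 3.46 M at 34 °C (median 1.19 M, 44.8 M in all) and between 0.0361 and 18.2 M at 25 °C (median 1.13 M, 130 M in all), where 1 cell held 13.97% of the sum. A median of 9379 genes was detected per cell at 34 °C and 8896 at 25 °C, and 7924 and 7481 after each cell was thinned to 200000 counts. After thinning, the early and late 25 °C cells had medians of 8065 and 4865 genes, so comparisons with the late cells rest on few cells of low gene number. Intronic counts, which are high when the nucleus was aspirated, were a median of 47.6% of all counts at 34 °C and 51.9% at 25 °C, but 14.03% in the 9 late cells. Both groups carried the markers of their label. Slc17a7, the vesicular glutamate transporter, stood at 428 CPM at 34 °C and 423 CPM at 25 °C, and Deptor at 262 and 190 CPM. Gad1 and Gad2 were at 12.1 CPM or less and had a median of 0 over cells at both temperatures. The 8 listed GABAergic markers together had a cell median of 170 CPM at 34 °C and 27.7 CPM at 25 °C, where the highest cell held 4354 CPM.

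Of 11118 measured genes, 784 were at least 2-fold higher at 34 °C (7.05%) and 922 at least 2-fold lower (8.29%), and the median fold change was 0.04. Over single cells the mean of log2(CPM + 1) was higher at 34 °C by a median of 0.55 over the measured genes. A median of 16 of the 29 cells at 34 °C lay above the 25 °C cell median over these genes, with at least 23 of 29 for 6.91% of genes, at least 25 for 1.95%, at least 26 for 0.998% and at most 1 for 0.216%.

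The stress-inducible Hsp70 genes had 2 of the 3 highest fold changes among the well-read genes. Hspa1a (chr17:34969190-34972156) stood at 279 CPM (95% interval 275 to 284) at 34 °C and at 32.9 CPM (31.9 to 33.9) at 25 °C, 8.28-fold. Over the 29 cells at 34 °C its lowest, median and highest values were 0, 169 and 1891 CPM, and over the 61 cells at 25 °C they were 0, 0 and 337 CPM. All but 1 cell at 34 °C held a read, 24 lay above the upper quartile of the 25 °C cells, and 9 lay above their highest cell, while 31 cells at 25 °C held none. After thinning, Hspa1a was read in 93.1% of cells at 34 °C (exact binomial 95% interval 77.2 to 99.2) and in 42.4% at 25 °C (29.6 to 55.9). Hspa1b (chr17:34956436-34959238) followed it with 292 and 33.6 CPM, and 12 of the 29 cells at 34 °C exceeded every cell at 25 °C. The groups overlapped for both genes, but their middles lay far apart. The genes are near-identical and intronless, so reads of one may be counted to the other. Hspa1a took 48.9% of the pair's reads at 34 °C and 49.5% at 25 °C, and the pair summed to 571 and 66.4 CPM.

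**Figure D1:**
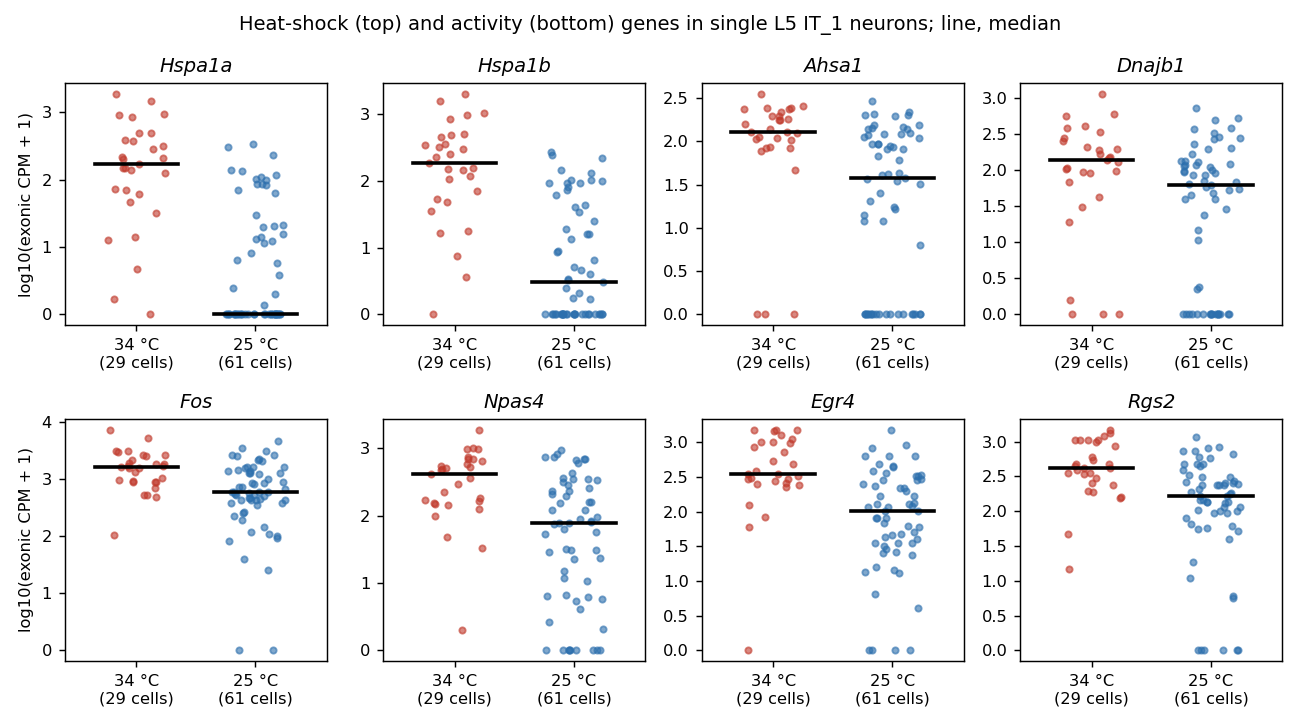
Exonic CPM of 8 genes in single L5 IT_1 neurons, as log10(CPM + 1), with the 29 cells at 34 °C left of the 61 cells at 25 °C and a line at each median. Most cells at 34 °C have Hspa1a reads (median 169 CPM) whereas the median at 25 °C is 0. Fos and Npas4 overlap widely and have the higher median at 34 °C.

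The 4 recording days at 34 °C differed. Hspa1a was at 310.6, 214.5 and 370.7 CPM on days 2, 3 and 4 (8, 8 and 12 cells), each above the highest of the 37 days at 25 °C (175 CPM), and at 3.8 CPM in the single cell of day 1. That cell also had 0.6 CPM of Dnajb1, the Hsp40 partner of Hsp70. It had no read of the astrocyte genes Gja1 and Slc1a3, but 524 CPM summed over all listed astrocyte markers. On 19 of the 37 days at 25 °C no cell had an Hspa1a read. Of these 37 days 24 held 1 cell and the fullest held 5, so their values rest on fewer cells than days 2 to 4 at 34 °C. Within the 25 °C cells the summed level was 38.2 CPM in the early and 9.0 CPM in the late cells.

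An astrocyte transcript was higher at 34 °C together with the Hsp70 pair. Gja1, the astrocyte gap junction protein, stood at 55.3 CPM at 34 °C and 3.9 CPM at 25 °C, and was read in 19 of 29 cells and in 7 of 61 cells. At 34 °C the 19 cells with a Gja1 read had 379 CPM of Hspa1a and the 10 without had 86.4 CPM. At 25 °C the 7 and 54 cells had 32.9 and 32.8 CPM. These sums weight deep cells, and the cell medians were 283 and 109 CPM at 34 °C and 14.4 and 0 CPM at 25 °C. Among cells without a Gja1 read in both groups the Hspa1a fold change was 1.37, against 3.05 over all cells. In cells with an intronic share of at least 40%, 16 at 34 °C and 42 at 25 °C, it was 3.68. Against the summed level of the astrocyte markers, Hspa1a had a Spearman's rho of 0.20 over the 29 cells at 34 °C and -0.14 over the 61 cells at 25 °C. The part of astrocyte RNA in the Hsp70 difference beyond these values was not tested.

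Most other chaperone genes had smaller fold changes above 0, fewer of them against the late 25 °C cells alone. Of 30 listed genes 27 were measured, 24 of them with a fold change above 0 and 3 below, and the list median was 0.59, against 0.04 over all measured genes. Against the late cells alone the list median was 0.16 and that of all genes 0.14, with 16 of the 27 genes above 0 and 11 below. Only 4 passed 2-fold higher, Hspa1a, Hspa1b, Ahsa1 and Dnaja4 (4 of 27, against 7.05% of all genes), and 0 of 27 passed 2-fold lower, against 8.29%. Ahsa1, which activates the ATPase of Hsp90, stood at 155 CPM at 34 °C and 67.1 CPM at 25 °C (fold change 1.20). It was above the 25 °C cell median in 26 of 29 cells, and all 4 days at 34 °C lay above the median day at 25 °C. Its level was much the same in 34 °C cells with and without a Gja1 read, 153 and 160 CPM. Dnaja4, an Hsp40, was low, at 12.98 and 5.5 CPM, and was lower at 34 °C when set against the late cells alone (-0.33).

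Among the abundant cytosolic chaperones, Hspa8, the constitutive Hsc70, stood at 2792 CPM at 34 °C and 1640.5 CPM at 25 °C (0.77) and ranged only between 2734 and 2873 CPM over the 4 days at 34 °C. Hsp90aa1 and Hsp90ab1, the Hsp90 isoforms, had fold changes of 0.69 and 0.47, and Hsph1, the nucleotide exchange factor Hsp110, of 0.78. Hsph1 was at 655 CPM at 34 °C, but at 25 °C at 312 CPM in the early and 695 CPM in the late cells, and against the late cells alone its fold change was -0.09. Dnaja1 and Dnajb4, further Hsp40 proteins, reached 0.59 and 0.54. The polyubiquitin gene Ubb reached 0.31. The mitochondrial chaperonins Hspe1 and Hspd1 were at 0.73 and 0.19, and the small heat-shock protein Cryab at 0.62. Of the Hsp90 and Hsp70 co-factors, Ahsa2, Chordc1, Fkbp4 and Cacybp lay between 0.38 and 0.99, Hspa4l at 0.45, and St13, Hspa4 and Stip1 between -0.01 and 0.17. The regulators Hsf1 and Hsf2 were at -0.25 and 0.05, and Dnajb5 at -0.49. Against the late cells alone Dnaja1 (-0.09), Hspd1 (-0.45), Ahsa2 (-0.16), Chordc1 (-0.06), Cacybp (-0.11) and St13 (-0.14) also lay below 0. Bag3, Hspb1 and Hspb8 were below 5 CPM in both groups and not measured.

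The cold-induced pair showed no common direction. Rbm3 was at 146 CPM at 34 °C and 111 CPM at 25 °C (0.39), and Cirbp at 71.7 and 80.2 CPM (-0.16). Both signs turned against the late cells alone, where Rbm3 was at -0.13 and Cirbp at 0.42. Cirbp lay above the 25 °C cell median in 12 of 29 cells and Rbm3 in 23 of 29.

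**Figure D2:**
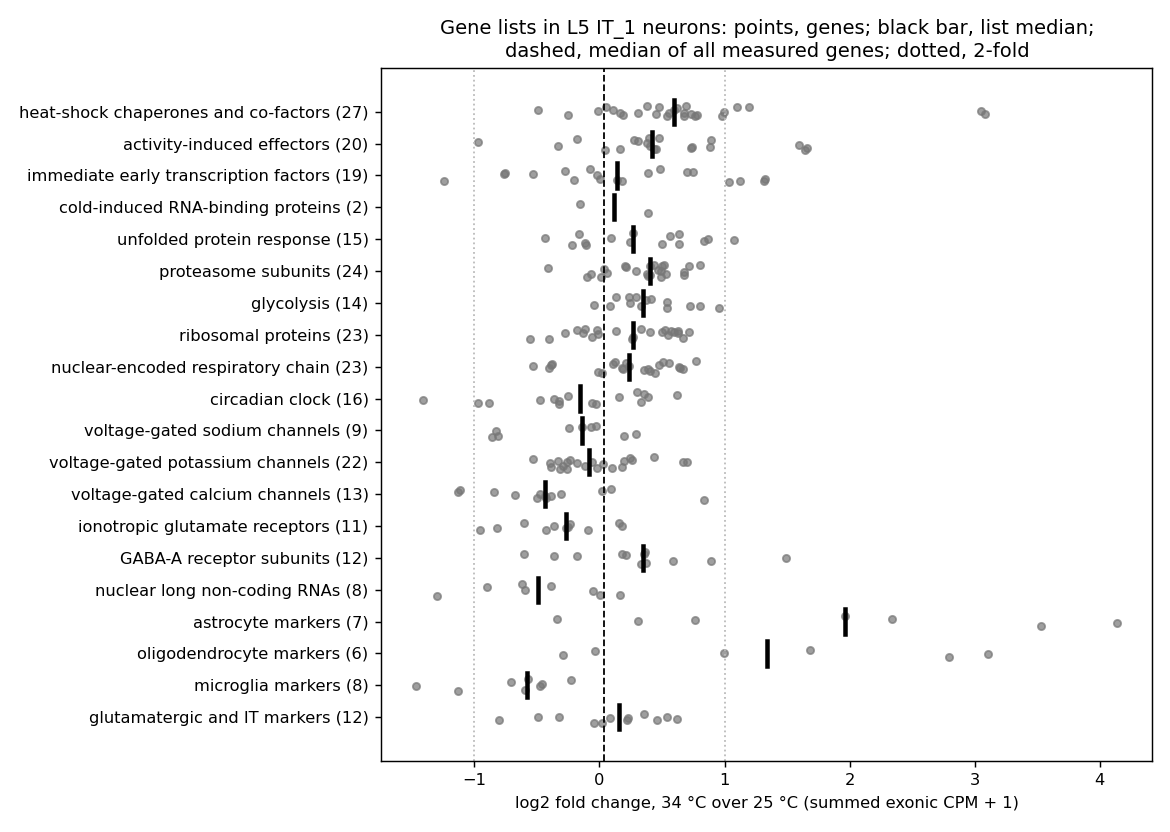
Fold changes (34 °C over 25 °C, log2) of measured genes in 20 lists, with 1 point a gene, a bar at each list median and a dashed line at the median of all measured genes (0.04). The heat-shock median is 0.59 with Hspa1a and Hspa1b far to the right, the astrocyte median is 1.97, and the microglia median is -0.58.

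Fos (chr12:85473890-85477273), a subunit of the AP-1 factor, was 2.18-fold higher at 34 °C, at 1800 CPM (1788 to 1813) and 826 CPM (821 to 831) at 25 °C. Over cells its lowest, median and highest values were 105, 1632 and 7491 CPM at 34 °C and 0, 598 and 4713 CPM at 25 °C. The groups overlapped, with 25 of 29 cells above the 25 °C median and 2 above the highest. By day Fos was at 909, 2275, 1295 and 2068 CPM at 34 °C, above the 25 °C day median of 610 CPM on all 4 days but below its highest day of 4713 CPM. It was at 903 CPM in the early and 482 CPM in the late 25 °C cells. Among cells without a Gja1 read the fold change was 0.999, against 1.12 over all cells.

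Other immediate early factors moved apart. Npas4, a neuronal factor switched on by calcium entry, stood at 406 CPM at 34 °C and 161 CPM at 25 °C (1.32), with cell medians of 414 and 75.7 CPM, and 26 of 29 cells lay above the 25 °C median. Egr4, a zinc finger factor, stood at 591 and 236 CPM (1.32) with cell medians of 349 and 100.2 CPM, again with 26 of 29 cells above. Both were above the 25 °C day median on all 4 days. Fosl2, of the AP-1 family, was at 39.7 and 18.9 CPM (1.03). Of the 19 measured of 20 factors these 4 passed 2-fold higher, against 7.05% of all genes, and Jund passed lower (7.9 and 20.04 CPM, -1.25), against 8.29%. The list median was 0.14, 11 lay above 0 and 8 below. Jund was higher in place of lower when set against the late cells alone (0.56). Jun, Ier5 and Egr1 were at 0.74, 0.70 and 0.49, and Egr3, Atf3 and Junb between 0.14 and 0.39. Klf4, Crem, Egr2 and Nr4a2 lay between -0.20 and 0.01, and Fosb, Nr4a1, Nr4a3 and Ier2, all known to follow activity within minutes, between -0.77 and -0.27. These 4 lay above 0 against the late cells alone (0.83, 0.54, 0.06 and 0.31), where the list median was 0.67. Maff was below 5 CPM in both groups. Without day 2, 3 of the 19 were past 2-fold higher and 3 lower, against 7.56% and 9.69% of all genes. Without day 4 it was 2 and 2, against 8.53% and 10.3%. In cells without a Gja1 read 0 factors passed 2-fold higher, against 9.93% of all genes in those cells. There Fos, Npas4, Fosl2 and Egr4 lay between 0.85 and 0.999, close to the limit. The list median in those cells was 0.19, with 12 of 19 above 0. In cells with an intronic share of at least 40% 8 of 19 did, against 14.7% of all genes, and the list median was 0.73.

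The effectors had a list median of 0.42, with 17 of 20 above 0. The 3 of 20 past 2-fold higher, against 7.05% of all genes, were Inhba, Spry4 and Rgs2. Rgs2, which speeds the shut-off of G protein signals, was at 589 CPM at 34 °C and 194 CPM at 25 °C, 3.02-fold. Its cells ran between 13.8 and 1488 CPM (median 419) at 34 °C and between 0 and 1155 CPM (median 162) at 25 °C, and its 4 days at 34 °C, at 451, 739, 490 and 591 CPM, all lay above the 25 °C day median of 162 CPM. In cells without a Gja1 read it was at 429 and 228 CPM (0.91) and no longer past 2-fold. Inhba, the activin A subunit, was at 55.4 and 16.9 CPM, but uneven by day, with 121 and 64.5 CPM on days 2 and 4 and 1.7 CPM or less on days 1 and 3. Without day 2 its fold change was 0.88, against 1.66. Spry4, an inhibitor of growth factor signalling, was low, at 10.8 and 2.8 CPM, and was at 0.03 as a mean over cells. Arc, which drives AMPA receptor endocytosis, was at 1278 and 688 CPM (0.89), and 0.24 in cells without a Gja1 read. Sik1, Ptgs2 and Gadd45g lay between 0.73 and 0.89, and Gadd45b, Dusp6, Homer1, Nptx2, Scg2, Ppp1r15a, Pcsk1 and Btg2 between 0.27 and 0.48. Nrn1, Bdnf and Vgf lay between -0.18 and 0.16, Dusp1 at -0.33, and Per1, also a clock gene, at 141 and 278 CPM (-0.97).

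Across the 29 cells at 34 °C, Fos levels ranked with those of Npas4 (Spearman's rho 0.76), Arc (0.70) and Egr4 (0.61), with a lower value for Hspa1a (0.47). Hspa1a ranked with Hspa1b (0.996) and with Arc (0.61), against -0.11 for Ahsa1 and -0.13 for Hsph1. Across the 61 cells at 25 °C Fos had a rho of 0.0006 with Npas4, of 0.35 with Arc, of 0.46 with Egr4 and of 0.40 with Hspa1a, and Hspa1a one of 0.15 with Arc. With the intronic share at 34 °C, Hspa1a had a rho of 0.41, Arc of 0.46, Npas4 of 0.37, Egr4 of 0.36 and Fos of 0.22. There Ahsa1 had -0.25 and Hsph1 -0.19. At 25 °C the values were -0.24 for Hspa1a, 0.06 for Arc, 0.29 for Npas4, -0.19 for Egr4 and -0.26 for Fos. Ahsa1 had -0.13 and Hsph1 -0.31. The part of nuclear content in the correlations between genes was not tested. Cells of 1 day share that day, and the correlations are given as a description.

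**Figure D3:**
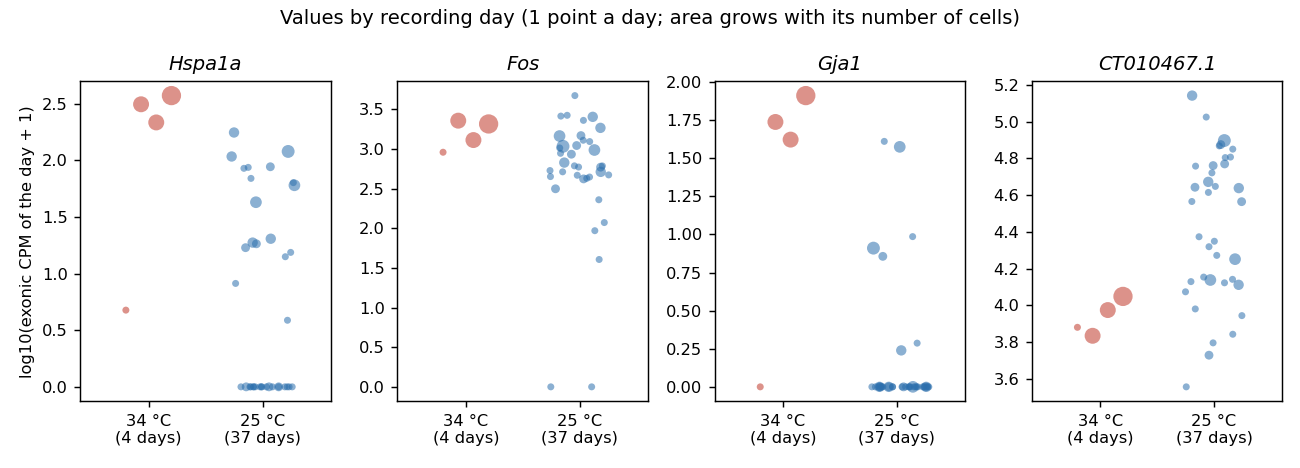
Summed exonic CPM by recording day, as log10(CPM + 1), with the 4 days at 34 °C left of the 37 days at 25 °C and point area growing with the number of cells. Hspa1a lies above every 25 °C day on 3 of 4 days, Fos lies within the range of the 25 °C days, Gja1 is at 0 on 30 of the 37 days at 25 °C, and CT010467.1 is below the 25 °C day median on all 4 days.

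Intronic reads come mostly from unspliced RNA and were counted apart from the exonic reads used so far. They were scaled to the intronic total, of 26.9 M at 34 °C and 99.7 M at 25 °C. Of 8440 genes measured in introns 7.57% were at least 2-fold higher and 19.5% at least 2-fold lower, with a median of -0.19. Dnajb1 had 65.9 intronic CPM at 34 °C, from 14 of 29 cells, and 8.5 CPM at 25 °C, from 12 of 61 cells (2.81), whereas its exonic fold change was 0.67. Intronic Hspa4l was at 184 and 79.1 CPM (1.21) and Hspe1 at 17.9 and 6.2 CPM (1.39). Intronic Ahsa1 was at 8.4 and 1.3 CPM, from 7 and 4 cells. Introns of Dnaja4 and Cacybp were lower (-1.14 each). Fos introns were at 12.3 and 4.9 CPM, from 18 of 29 and 22 of 61 cells (1.17). Those of Npas4 were at 11.7 and 6.2 CPM (0.82), and those of Egr4 at 14.03 and 14.04 CPM. Nr4a1 introns were lower at 34 °C (-1.13) and Nr4a3 introns higher (1.07). Of the effectors, introns of Sik1 (12.1 and 0.6 CPM), Ptgs2 (16.2 and 2.3 CPM) and Dusp6 (25.2 and 7.9 CPM) were more than 2-fold higher, and Rgs2 introns had a fold change of 0.93.

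**Figure D4:**
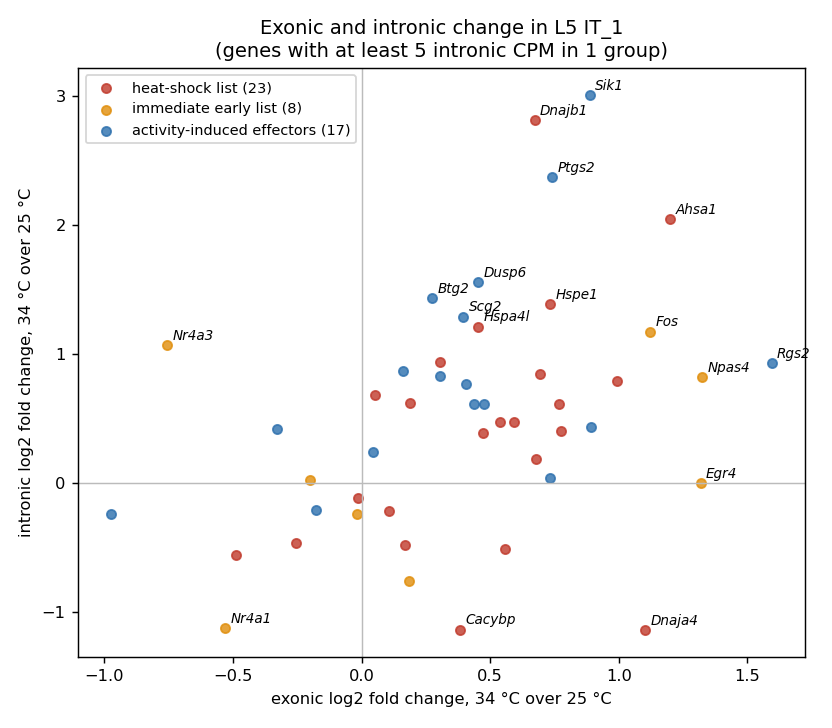
Exonic (x axis) and intronic (y axis) log2 fold changes, 34 °C over 25 °C, of genes of the heat-shock, immediate early and effector lists with at least 5 intronic CPM in 1 group, 1 point a gene reported here. Dnajb1 lies at 0.67 exonic and 2.81 intronic, Ahsa1 and Fos lie above 1 on both axes, and Egr4 lies at 1.32 and 0.00.

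The 15 highest fold changes were taken among genes of at least 50 CPM that were read in at least 50% of cells and days of the higher group and were also higher by at least 1 on the per-cell log2 scale. Besides the Hsp70 pair, the 15 highest held 7 genes known for high expression in glia. Gja1 (3.53), Plpp3, a lipid phosphate phosphatase (3.02), Htra1, a secreted serine protease (2.61), Slc25a18, a mitochondrial glutamate carrier (1.97), Slc1a3, the glial glutamate transporter (1.97), and Gpr37l1 (1.94) are known from astrocytes, and Ptgds, prostaglandin D2 synthase (2.04), from oligodendrocytes and meninges. Plpp3 stood at 89.0 CPM at 34 °C and 10.1 CPM at 25 °C, was above every 25 °C cell in 9 of 29 cells, and kept a fold change of 2.201 in cells without a Gja1 read. Slc1a3 was lower at 34 °C in those cells (-0.83). Ptgds stood at 203.6 CPM on day 4 and was lower at 34 °C once that day was left out (-1.02).

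The other 6 of the 15 were not of that kind. Ccnd1, cyclin D1, was at 62.7 and 10.6 CPM (2.46), and Wee1, a kinase that holds cell division, at 54.2 and 13.7 CPM (1.91). Nifk, a nucleolar protein, was at 62.1 and 12.6 CPM (2.22), Gng12, a G protein gamma subunit, at 87.6 and 19.1 CPM (2.14), Ublcp1, a phosphatase of the proteasome, at 107 and 27.9 CPM (1.90), and Ufm1, a ubiquitin-like modifier, at 52.01 and 13.7 CPM (1.85). The rule itself chose on cells with a read and on per-cell differences, so cell medians are no separate support. All 6 had cell medians between 19.2 and 61.9 CPM at 34 °C and of 1.5 CPM or less at 25 °C. Their levels were above 35 CPM on each of the 4 days at 34 °C, and Ccnd1, Nifk, Ublcp1 and Ufm1 stayed past 2-fold under each of the 17 alternative settings tried for single genes. In cells without a Gja1 read Nifk was at 2.02 and Gng12 at 2.14. There Ccnd1 was at 1.63, Wee1 at 1.28, Ublcp1 at 1.29 and Ufm1 at 1.09.

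The 15 lowest fold changes, taken by the same rule in the other direction, held 6 ribosomal, short-RNA or related entries. The rule was met by 53 genes in this direction and by 1646 in the other, so the lowest were drawn from far fewer genes. CT010467.1, annotated as ribosomal RNA (chr17:39846353-39848827), was at 9226 CPM at 34 °C and 45175 CPM at 25 °C, with cell medians of 9031 and 35689 CPM, and 1 of 29 cells exceeded the 25 °C median. Lars2, a mitochondrial leucyl-tRNA synthetase gene, was at 889 and 3796 CPM. Gm15564, annotated as an antisense RNA, was at 438 and 1712 CPM. Without strand, its reads cannot be told apart from those of a gene on the opposite strand at its own locus. Rn7s1, the 7SL RNA of the signal recognition particle, was at 1097 and 8131 CPM, though at 9870 CPM in the early and 358 CPM in the late cells at 25 °C. Gm24105, Gm23153 and Gm24245, annotated as short RNAs, were at 0.758, 0.245 and 8.99 CPM at 34 °C and at 317, 94.3 and 128 CPM at 25 °C, but at 0.757, 0.126 and 12.3 CPM in the late 25 °C cells. CT010467.1, Rn7s1, Gm26917, Gm15564 and Lars2 together took a median of 3.33% of exonic counts per cell at 34 °C and 7.68% at 25 °C. Ribosomal and 7SL RNA carry little or no poly(A) tail, and a gene's CPM depends on their share. With the 8 rows of this kind left out of the totals the median fold change of all genes was -0.06 and Hspa1a was at 2.96.

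Among the other 9 of the 15 lowest were Iqcn (6.9 and 103 CPM), Elp6, of the elongator complex (17.9 and 121 CPM), Nup210, a nuclear pore protein (10.9 and 56.3 CPM), Gtf3c1, a subunit of the RNA polymerase III factor TFIIIC (31.4 and 137 CPM), Vipr1, a receptor of vasoactive intestinal peptide (22.1 and 87.7 CPM), Ppp1r10, a nuclear subunit of protein phosphatase 1 (81.9 and 264 CPM), Kansl1l (26.97 and 87.6 CPM) and Mpp3, a scaffold protein (46.8 and 140 CPM). Of these, Iqcn, Nup210, Gtf3c1 and Ppp1r10 stayed past 2-fold lower under all 17 settings. Elp6, Vipr1 and Mpp3 were at or above 0 against the late cells alone. The nuclear long non-coding RNAs had a list median of -0.49. Malat1, the most abundant, was at 6137 and 15102 CPM (-1.30), and 1 of 29 cells exceeded the 25 °C median, while Meg3 was at 3477 and 5249 CPM (-0.59). Miat was at -0.62 and Mirg at -0.90.

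Metabolic and protein turnover lists had medians within 2-fold, several with most members above 0. Of 15 unfolded protein response genes 1 passed 2-fold higher, close to the 7.05% of all genes. It was Asns, asparagine synthetase (233 and 110 CPM, 1.08), with Chac1 at 0.87 and Pdia4 at 0.84 and a list median of 0.27. The 24 proteasome subunits had a median of 0.40, with 21 above 0, and ran between -0.41 and 0.80, with Psmb4 (0.80) and Psmc4 (0.71) highest. Of 14 glycolysis enzymes 13 were above 0, with a median of 0.35 and with Gapdh at 1416 CPM at 34 °C and 728 CPM at 25 °C (0.96), Pgk1 at 0.81 and Tpi1 at 0.72. Ribosomal proteins had a median of 0.27 (Rpl5 0.71, Rpl10 0.67) and nuclear-encoded respiratory chain subunits of 0.24 (Ndufv1 0.78, Atp5b 0.67). The mitochondrially encoded proteins had a median of 0.03 (mt-Nd6 -0.50, mt-Nd2 -0.28). Cholesterol synthesis genes had a median of 0.46, with 9 of 13 above 0, Sc5d at 0.98 and Idi1 at 0.66. None of these 6 lists, from the proteasome to cholesterol synthesis, had a member past 2-fold in either direction, against 7.05% and 8.29% of all genes. Outside the lists, Snap25, a synaptic vesicle fusion protein, was at 8747 and 5193 CPM (0.75), and Actb at 3180 and 2013 CPM (0.66).

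Hypoxia targets had a median of 0.29 over 8 measured genes (Pgk1 0.81, Pfkfb3 -0.70), and oxidative stress targets of 0.13 over 8, with Hmox1, heme oxygenase, at 15.2 and 32.6 CPM (-1.05) and Mt1 at -0.71. Of 5 measured p53 targets 1 passed 2-fold higher, against 7.05% of all genes. It was Ccng1, cyclin G1, at 155 and 64.3 CPM (1.26), and Gadd45a was at 0.93, with a list median of 0.18. The 10 cytokine and NF-kB genes had a median of -0.17, with Ccl2 at 1.14, Tnfaip3 at 1.09, Cxcl10 at -1.12 and Icam1 at -1.03, and each of these had a cell median of 0 in both groups. Only 2 of 8 interferon-induced genes were measured, Ifi27 (0.67) and Ifit3, which had 705 reads at 34 °C and 4 reads at 25 °C. Circadian clock genes had a median of -0.16 over 16, with Npas2 at 33.6 and 91.1 CPM (-1.41), Per2 at -0.89 and Rorb at 0.62. Splicing regulators of the SR and CLK families had a median of 0.18 (Clk2 -0.96, Tra2a -0.71).

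Ion channel and receptor genes, which set the spike shape that recording temperature alters, mostly stayed within 2-fold. Sodium channel genes had a median of -0.14, with Scn8a at 179 and 325 CPM (-0.86) and the beta subunit Scn2b at -0.81, and 0 of 9 passed 2-fold, against 7.05% of all genes higher and 8.29% lower. Of 22 potassium channel genes 0 passed (median -0.09, Kcnd2 0.70, Kcnab1 0.67, Kcnc1 -0.53). Among HCN and leak channels the median was -0.05, with Kcnk10 at 20.6 and 9.0 CPM (1.11) and Kcnj4 at 4.4 and 13.4 CPM (-1.42). Calcium channel genes had a median of -0.44 with 10 of 13 below 0, and Cacna1d, an L-type pore subunit (39.4 and 87.4 CPM, -1.13), and Cacna1g, a T-type pore subunit (44.4 and 97.1 CPM, -1.11), passed 2-fold lower (2 of 13, against 8.29% of all genes), Cacna1b, an N-type pore subunit, was at -0.84, and the auxiliary Cacnb4 was at 0.84. The temperature-sensitive TRP channels had 5 of 11 measured and a median of -0.38 (Trpc5 -0.83, Trpm4 -0.62). Ionotropic glutamate receptors had a median of -0.27 (Gria4 -0.96, Grik3 -0.82), and GABA-A receptor subunits of 0.35 (Gabrg1 1.49, at 16.5 and 5.2 CPM, and Gabra5 0.89).

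Markers of cells that surround a patched neuron differed by type. The astrocyte list had 7 of 8 genes measured, 6 above 0 and 4 past 2-fold higher, against 7.05% of all genes (Aqp4 4.14, Gja1 3.53, Gjb6 2.34, Slc1a3 1.97), a median of 1.97, and a summed level per cell of 405 to 6124 CPM (median 1163) at 34 °C and of 0 to 5417 CPM (median 677) at 25 °C. Of the oligodendrocyte list 3 of 6 passed 2-fold higher, against 7.05% of all genes, among them Mog (3.11) and Mag (2.80). Their summed level per cell had a median of 474 CPM at 34 °C and 560 CPM at 25 °C. All 8 microglia genes were lower at 34 °C (median -0.58, C1qa -1.46, P2ry12 -1.13), with summed cell medians of 360 and 342 CPM. Olig1 was the 1 oligodendrocyte precursor gene measured (0.12), and 0 of the 6 endothelial and mural genes in the tables reached 10 CPM. The glutamatergic and IT markers had a median of 0.16, with Nrgn at -0.80 and Rorb at 0.62. The ET and CT markers Fezf2 and Tle4 were at 0.18 and 0.11. Of 6 measured GABAergic genes 1 passed 2-fold higher (1.15), against 7.05% of all genes. Vip passed lower, at 0.8 and 19.9 CPM (-3.54), against 8.29%, and the list median was -0.31. What these transcripts add to the results other than the values given with the Gja1 split was not tested.

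The same comparison was available in L4/5 IT_2 neurons (10 cells at 34 °C and 32 at 25 °C) and in Sst Hpse interneurons (16 and 50 cells). All 10 L4/5 IT_2 cells at 34 °C were recorded on 3 of the 4 days of the L5 IT_1 cells, and 4 of the 16 Sst Hpse cells on 2 of them, so the types are not independent. In L4/5 IT_2 12.9% of measured genes were at least 2-fold higher and 16.2% lower, and in Sst Hpse 12.8% and 15.8%. Hspa1a was at 231 and 41.5 CPM in L4/5 IT_2 (2.45) and at 239 and 124 CPM in Sst Hpse (0.94), against 3.05 in L5 IT_1. The 34 °C levels of the 3 types thus lay between 231 and 279 CPM, and the 25 °C levels between 32.9 and 124 CPM. Ahsa1 had fold changes of 0.89 and 1.09, and Hsph1 of -0.13 and -0.39, opposite in sign to its 0.78 in L5 IT_1. Fos was at 1.77 and 0.63, Npas4 at 1.45 and 2.84, Egr4 at 1.82 and 1.87, and Arc at 1.16 and 2.94. The heat-shock list had medians of 0.38 and 0.30, and the immediate early list of 1.27 and 1.38, where it was 0.14 in L5 IT_1. Gja1 was higher in both (3.45 and 1.93), whereas Slc1a3 was at 4.96 in L4/5 IT_2 and -4.31 in Sst Hpse. CT010467.1 was lower in both (-1.77 and -1.40), and so was Lars2 (-2.27 and -2.97). Differences between the types were not tested, since each was 1 sample per temperature.

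**Figure D5:**
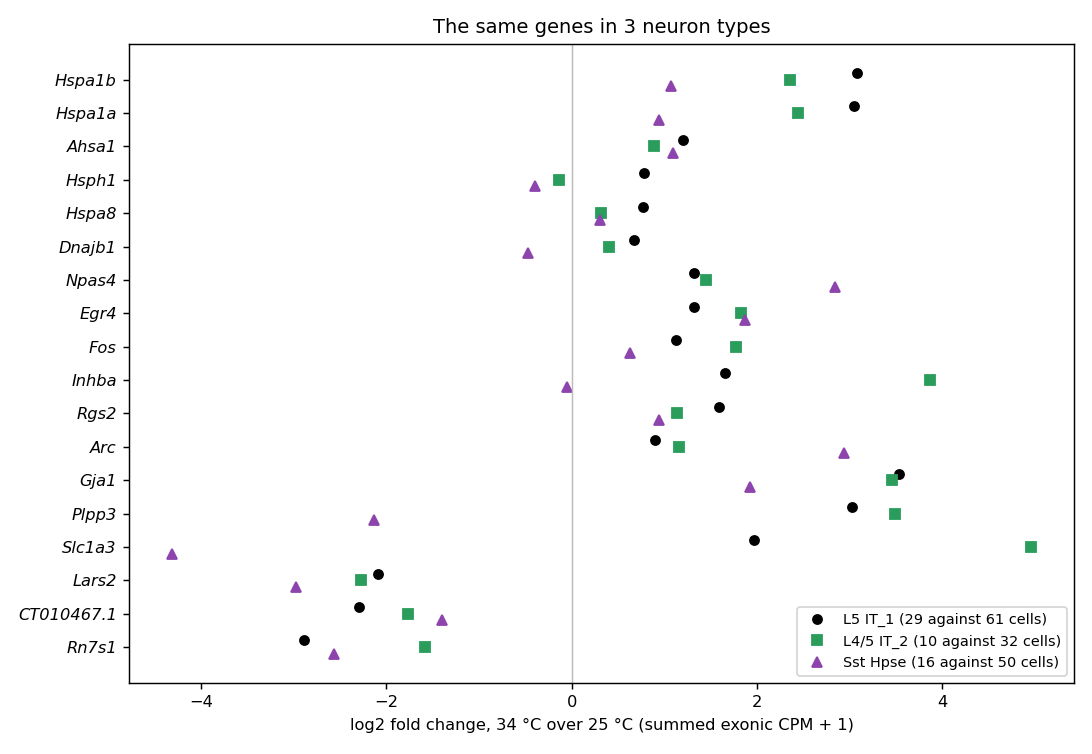
Log2 fold changes, 34 °C over 25 °C, of 18 genes in L5 IT_1, L4/5 IT_2 and Sst Hpse neurons. Hspa1a is at 3.05, 2.45 and 0.94, Npas4, Egr4 and Fos are above 0 in all 3 types, Slc1a3 differs in sign, and Lars2, CT010467.1 and Rn7s1 are below 0 in all 3.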

How the data were processed

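The content of single patched neurons of mouse motor cortex was sequenced with Smart-seq2. Per the labels, reads were demultiplexed with bcl2fastq 2.20 and aligned to mm10 with STAR 2.5.4b. The deposited tables hold whole-number exonic and intronic read counts per gene, made by the authors with no normalization, in separate files for each temperature. In the 25 °C tables, 9 of 1329 columns had no sample and were not used. The 30749 gene symbols that the tables share entered, without the 85 spike-in rows of the 25 °C table.

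The 29 cells at 34 °C and 61 cells at 25 °C were grouped by label, and recording days were taken from the column names. Counts were summed per group, divided by the summed total and given as CPM. Genes of at least 10 CPM in the higher group were measured, fold changes used a pseudocount of 1 CPM, and 2-fold was the limit for counting a gene. Exact Poisson and exact (Clopper-Pearson) binomial 95% intervals cover counting error only, and PCR reads that carry no molecular identifier are not separate molecules. Each temperature was 1 sample, because no animal is named, so no p-value was computed. Cells were thinned to 200000 counts, without the 2 shallower cells at 25 °C, to compare shares of cells with a read. The computation used Python 3.11.15 with numpy 2.4.6, scipy 1.17.1, pandas 2.3.3 and matplotlib 3.10.9, and was tested on simulated data.

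The members and the 34 gene lists were chosen with earlier results of these data known. Named were Hspa1a, Fos, the measured genes of the heat-shock, cold and both activity lists, the 15 highest and 15 lowest fold changes with at least 50 CPM, a read in at least 50% of cells and days of the higher group and a per-cell log2 difference of at least 1 in the same direction, and the 2 to 4 genes of each other list with the largest fold change in either direction. Snap25, Actb, Rn7s1 and Gm26917 fall outside this rule and were chosen after their values were seen, as abundant RNAs. In all 19 alternatives were run, and those on Gja1, on intronic share, on the deepest cell and on ribosomal RNA were chosen after seeing the data. Some genes that these rules select are not reported here.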

Additional observations from a re-analysis of the deposited data

Results flagged for a closer look

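The astrocyte genes Slc1a3 and Gpr37l1 were higher at 34 °C in L5 IT_1 neurons and lower in Sst Hpse interneurons. Slc1a3 had a log2 fold change of 1.97 in L5 IT_1 and of -4.31 in Sst Hpse, where it stood at 0.746 CPM at 34 °C and 33.6 CPM at 25 °C. Gpr37l1 had a log2 fold change of 1.94 in L5 IT_1 and of -4.10 in Sst Hpse, where it stood at 0.631 CPM at 34 °C and 26.9 CPM at 25 °C. The difference between the types was not tested.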

How the results depend on the processing

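No paired analysis was possible because the labels tie no cell at 34 °C to a cell at 25 °C, and each temperature was 1 sample. Of the 39 named genes past 2-fold, 15 stayed past it under each of the 17 alternatives run for single genes. Against the main 1706 genes past 2-fold (784 higher, 922 lower), a pseudocount of 10 CPM gave 600 (271 and 329), a minimum of 50 CPM gave 420 (224 and 196), and no minimum gave 4565 (1723 and 2842). Against the 9 late 25 °C cells (of the last 25 °C year) alone there were 4734 (2832 and 1902), so 59.8% were higher in place of 45.96%. These late cells held a median of 4865 genes after thinning, against 7924 at 34 °C. In cells with an intronic share of at least 40% there were 3303 (1700 and 1603), and in cells without a Gja1 read 1430 were lower. Leaving out each 34 °C day gave 1684 to 2104 genes, 784 to 952 higher and 900 to 1152 lower.

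The heat-shock median was 0.16 against the late cells alone, where the median of all genes was 0.14, in place of 0.59, and 0.48 to 0.68 without each day. The effector median was 1.17 against the late cells alone and 0.23 without Gja1 cells, in place of 0.42, and 0.26 to 0.56 without each day. The immediate early median was 0.67 against the late cells alone and 0.73 in cells with an intronic share of at least 40%, in place of 0.14, and 0.16 to 0.24 without each day. The cold-induced median was -0.02 to 0.18 without each day. The intronic share was lower at 34 °C by a difference of medians of -4.31 percentage points (-4.96 to -3.56 without each day), but 33.5 points higher against the late cells alone. Of 94 named genes 29 had the other sign against the late cells alone. Of these, 7 were past 2-fold against all 25 °C cells, with log2 fold changes against the late cells as follows, Gm24105 (0.000903), Gm23153 (0.15), Elp6 (0.16), Vipr1 (0.39), Mpp3 (0.0915), Dnaja4 (-0.33) and Jund (0.56). Ptgds turned to -1.02 without day 4 (highest 2.47, without day 2) and Slc1a3 to -0.83 without Gja1 cells. Under a minimum of 50 CPM 5282 genes were measured, of which 4.24% were at least 2-fold higher and 3.71% lower. In the main comparison it was 7.05% and 8.29% of 11118 genes. The smaller counts there thus came with both fewer genes and a lower share of them. Causes of the differences between settings were not tested. Depth limits genes near 10 CPM, and with 1 sample a temperature no interval covers the spread between animals.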

Other observations

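Within each temperature the Hsp70 and early genes were also set out by nuclear content. At 34 °C Hspa1a was at 500.7 CPM in the 16 cells with an intronic share of at least 40% and at 169.7 CPM in the other 13, and at 25 °C at 38.1 CPM in 42 cells and 26.4 CPM in 19. Egr4 was at 781 and 497 CPM at 34 °C and at 236 and 237 CPM at 25 °C in the same classes. Ahsa1 had the other order, at 126 and 170.0 CPM at 34 °C and at 58.1 and 78.3 CPM at 25 °C. Differences between the classes were not tested.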
